A study of Mus musculus with 9 samples.

Results

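The genes described here are the translation initiation factors of mouse CD8+ T cells, the proteins that bring messenger RNA, initiator tRNA and the ribosome together. They are the 49 rows of a gene expression table of 23936 named genes whose symbol starts with Eif and a digit of 1 to 6, leaving out the eIF2 kinases (Eif2ak), the hypusinated factor eIF5A and pseudogene symbols. They were taken by name and not by their values, but this group of genes was chosen with earlier results of these data known. All 9 libraries came from OT-I cells, which carry a transgenic T cell receptor against an ovalbumin peptide, so that every group shares 1 receptor. The groups, of 3 libraries each, were MLN-primed cells from the mesenteric lymph node, whose titles carry the word oral, spleen-primed cells from the spleen, whose titles carry the letters iv, and naive cells from the spleen. Organ and route therefore change together between the primed groups and cannot be told apart. The sources used here do not give the agent used for priming, the time after it, or the sex and age of the mice. The labels do not say whether libraries of 1 group came from separate mice, so the p-values measure the spread between libraries, which may be technical. The comparisons ask how cells primed at the 2 sites differ from each other and from naive cells.

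In cap-dependent initiation, the eIF4F complex (the cap-binding protein eIF4E, the helicase eIF4A and the scaffold eIF4G) prepares the messenger RNA. The small ribosomal subunit, loaded with eIF1, eIF1A, eIF3, eIF5 and a ternary complex of eIF2, GTP and initiator tRNA, then scans for the start codon. eIF2B recharges eIF2 with GTP and is the step that the eIF2 kinases block, while the 4E-binding proteins hold eIF4E back until mTORC1 phosphorylates them. Resting T cells translate little, and activation raises protein synthesis before and during division.

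Transcript levels were deposited as FPKM, fragment numbers scaled to transcript length and library size, so that genes can be compared per length. The number of reads behind each value is unknown. Between 9469 and 9667 genes reached 1 FPKM in a library. The 10 most abundant genes of each library held 8.40% to 9.28% of FPKM in MLN-primed cells, 8.87% to 9.92% in spleen-primed cells and 14.1% to 15.3% in naive cells. The labelled cell type had its markers: Cd3d, Cd3e, Cd3g, Cd8a and Cd8b1 summed to 1377 to 1458 FPKM in MLN-primed cells, 1980.2 to 2039.5 FPKM in spleen-primed cells and 2894 to 3203 FPKM in naive cells. The activation markers Cd44, Gzmb and Il2ra summed to 1141 to 1306 FPKM in MLN-primed cells, 1445 to 1712 FPKM in spleen-primed cells and 3.98 to 7.35 FPKM in naive cells. Of the markers listed for B cells, CD4 T cells, myeloid, dendritic and NK cells, red cells, epithelium and stroma, those over 1 FPKM in any library were Cd79b, Lyz2, S100a8, Klrb1c, Hba-a1, Hbb-bs, Hbb-bt and Krt18. The B cell gene Cd79b had 11.0 to 14.4 FPKM in MLN-primed cells, 6.29 to 7.93 FPKM in spleen-primed cells and 10.9 to 14.7 FPKM in naive cells, whereas Ms4a1 was under 0.134 FPKM in each library. The 4 myeloid markers in the table summed to 0.145 to 0.230 FPKM in MLN-primed cells, 0.436 to 2.23 FPKM in spleen-primed cells and 4.09 to 30.0 FPKM in naive cells, and the part of such cells in the comparisons was not tested. In such bulk samples, a change in the mix of cells and a change in RNA per cell cannot be told apart.

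Differences are given on the log2(FPKM + 1) scale as limma's estimate ± SE, the first-named group minus the second, with p-values adjusted over all 10185 genes that reached 1 FPKM in 3 or more libraries. Values written with ± after a mean are SD over the 3 libraries. Of the 49 members, 47 passed this filter. Eif2s3y, the Y-linked copy of the eIF2 gamma subunit gene, and Eif4e1b, a relative of the cap-binding protein known from oocytes, were listed at 0 FPKM in all 9 libraries. One of the 47, Eif3j1, passed only through the libraries numbered 3, which is taken up with the eIF3 genes.

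The initiation factors took a larger share of the transcript pool in primed cells, and the largest in MLN-primed cells. All members together made up 1.01, 1.02 and 1.02% of FPKM in MLN-primed cells, 0.843, 0.849 and 0.868% in spleen-primed cells and 0.750, 0.710 and 0.735% in naive cells. No library of one group overlapped another group's range. The differences were 0.164 ± 0.0079 percentage points between MLN-primed and spleen-primed cells, 0.285 ± 0.012 between MLN-primed and naive cells and 0.121 ± 0.014 between spleen-primed and naive cells (SE of the difference). Each had an exact two-sided permutation p of 0.1 (0.1 also after adjustment over the 3), the smallest that 3 against 3 libraries allow. With the 10 most abundant genes left out of the total, the shares averaged 1.12% in MLN-primed cells, 0.944% in spleen-primed cells and 0.858% in naive cells. The share is a sum, so abundant members such as Eif4a1 weigh most in it. In MLN-primed, spleen-primed and naive cells, the eIF4 factors averaged 0.303, 0.221 and 0.156% and the eIF3 genes 0.447, 0.419 and 0.402%. The eIF4E-binding inhibitors, at 0.0168, 0.0154 and 0.0168%, did not follow the order of the whole.

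**Figure D1:**
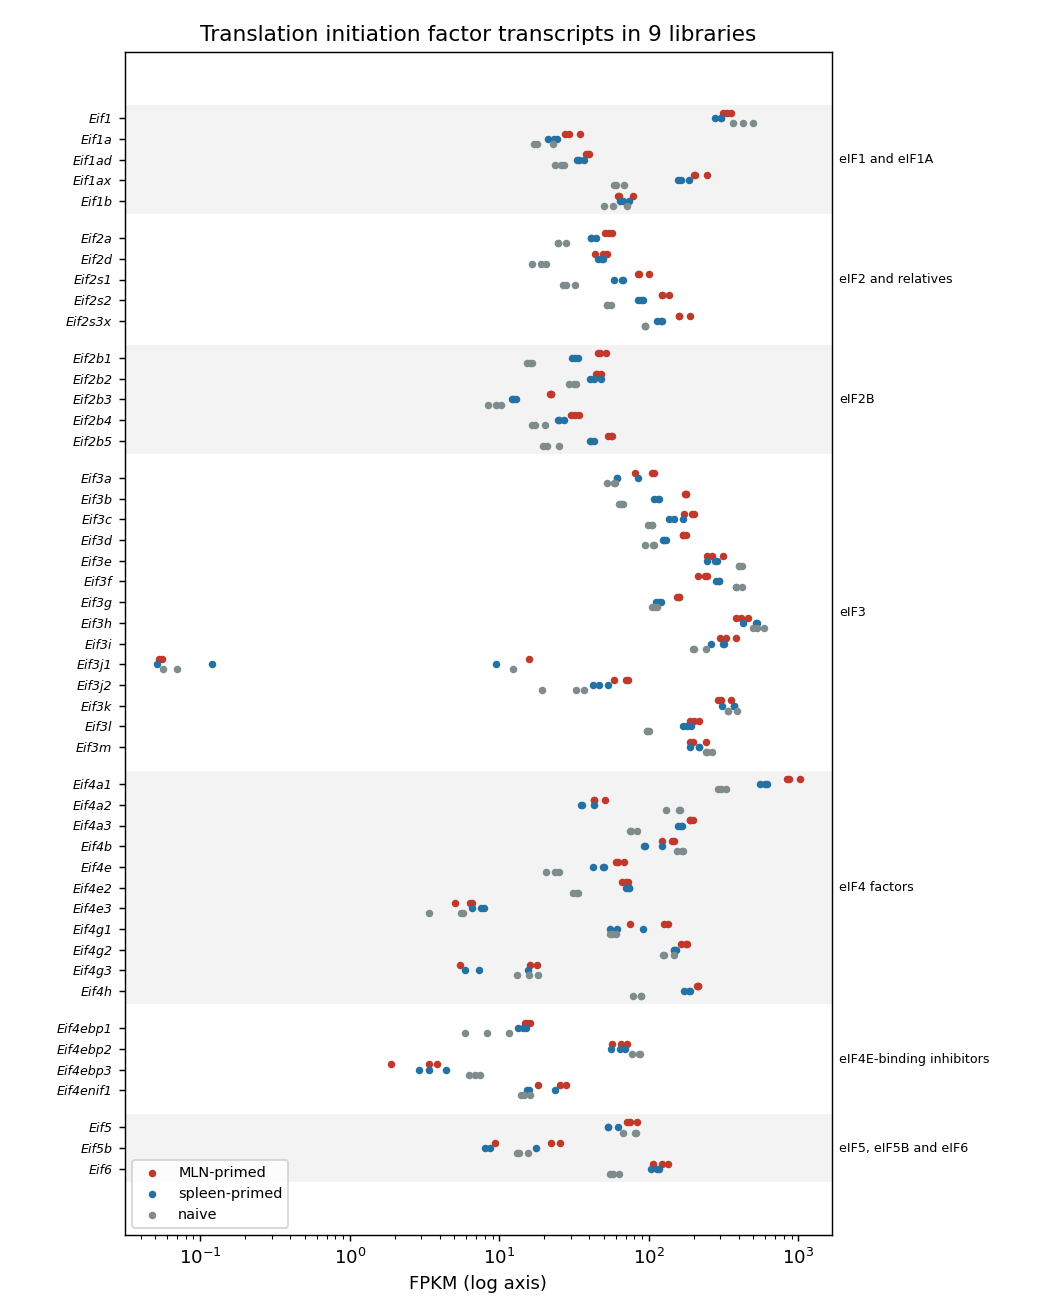
FPKM of the 47 tested members in each library, on a log axis, with 1 point per library and members grouped by role. In 18 members all MLN-primed points lie to the right of all spleen-primed points and these to the right of all naive points; in Eif4a2, Eif1, Eif3e and Eif3f the naive points lie farthest right.

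Between MLN-primed and spleen-primed cells, 22 of the 47 tested members rose, 1 fell and 24 did not pass the threshold of an adjusted p of 0.05. Over all genes tested, 17.3% rose and 13.1% fell in this comparison. All MLN-primed libraries lay above all spleen-primed ones in 24 members and below them in 2, against 25.1% and 21% of all genes. The median log2 difference of the members was 0.31, against 0.03 over all genes. Of the 22, 15 also passed under both other scalings of the libraries (median-of-ratios and quantile), and 13 passed whichever of the 6 libraries was left out. The count of members that rose was 14 both without spleen-primed 1 and without spleen-primed 2. Against naive cells, 31 members rose and 8 fell in MLN-primed cells, where 45.5% of all genes rose and 33.2% fell. In spleen-primed cells 26 members rose and 9 fell, against 43.1% and 32.7% of all genes. Members without overlap with naive cells were 31 above and 9 below in MLN-primed cells (45.8% and 34.6% of all genes) and 27 above and 9 below in spleen-primed cells (44.5% and 33.7% of all genes). The median differences from naive cells were 0.74 in MLN-primed cells and 0.38 in spleen-primed cells. The all-gene medians of these 2 comparisons were 0.15 and 0.10 and moved to about 0 under the median-of-ratios scaling, so that relative to all genes the members' medians were 0.59 and 0.28. The naive comparisons are the ones that scaling changed most. Under quantile normalization the members' medians were 0.24 in MLN-primed cells and -0.023, hence of the opposite sign, in spleen-primed cells. The all-gene medians under quantile normalization were -0.041 and -0.067, so the members' medians lay above them in both comparisons. Under both scalings together, 22 members remained higher and 8 lower in MLN-primed than in naive cells, and 19 remained higher and 9 lower in spleen-primed cells. The calls that were higher than naive cells and did not pass as such under quantile normalization were those of Eif1a, Eif2b2, Eif3a, Eif3c, Eif3d, Eif3g, Eif3i, Eif4g1 and Eif4g2 in MLN-primed cells, and those of Eif1ad, Eif2s3x, Eif2b2, Eif3c, Eif3d, Eif3i and Eif3j2 in spleen-primed cells. Both comparisons use the same 3 naive libraries, so their results are not independent of each other.

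In 18 of the 47 members every MLN-primed library lay above every spleen-primed library and every spleen-primed library above every naive one, an order that 15.4% of all tested genes followed. The reverse order was seen in 1 member, Eif3f, and in 8.77% of all tested genes. The 18 were Eif1ad, Eif1ax, Eif2s1, Eif2s2, Eif2s3x, Eif2a, Eif2b1, Eif2b3, Eif2b4, Eif2b5, Eif3b, Eif3c, Eif3d, Eif3j2, Eif4a1, Eif4a3, Eif4e and Eif4h. By role, then, they included all 3 expressed eIF2 subunit genes and 4 of the 5 eIF2B genes, but none of the eIF4E-binding inhibitors.

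**Figure D2:**
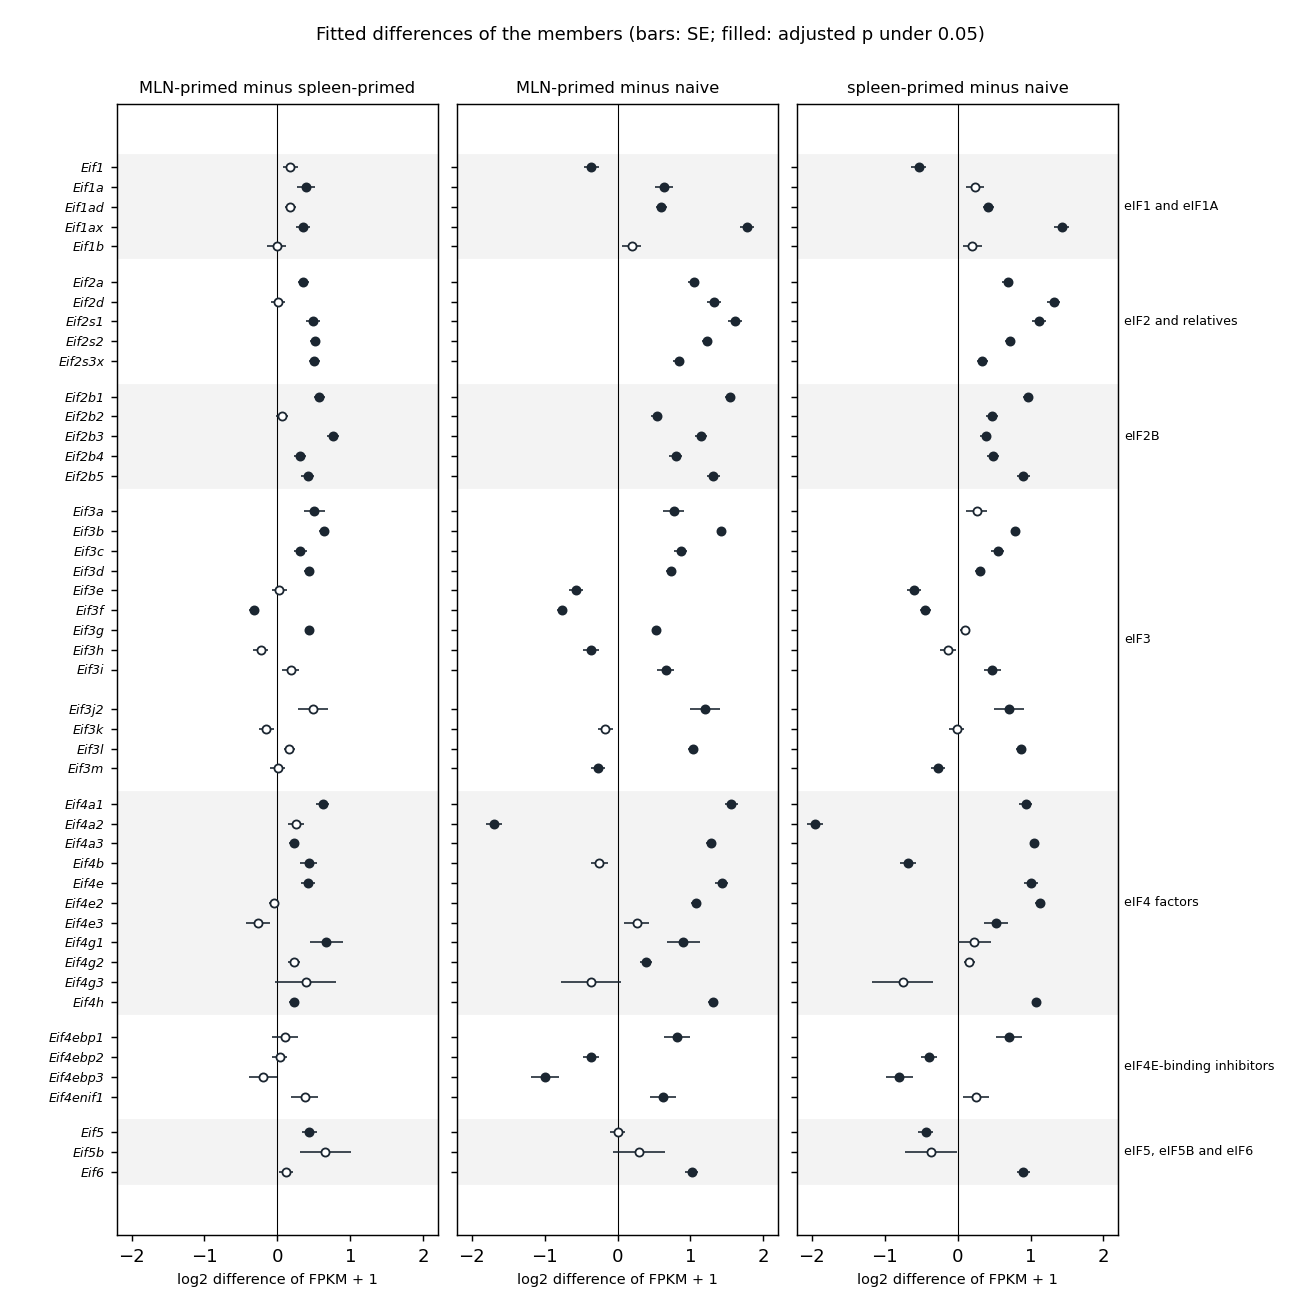
Fitted log2 differences of FPKM + 1 for the tested members except Eif3j1, with SE bars, for MLN-primed minus spleen-primed, MLN-primed minus naive and spleen-primed minus naive cells; filled points passed an adjusted p of 0.05. Eif4a2 lies farthest to the left in both comparisons with naive cells, at -1.70 and -1.96.

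Among the factors that hold the small subunit ready for scanning, both partners of that step changed, in opposite directions: the main eIF1A gene rose in primed cells and the main eIF1 gene fell. Eif1ax, the X-linked gene of eIF1A, had 245, 201 and 202 FPKM in MLN-primed cells, 185, 165 and 157 FPKM in spleen-primed cells and 67.7, 58.8 and 60.2 FPKM in naive cells. The 3 groups did not overlap. Its differences from naive cells were 1.78 ± 0.098 (adjusted p = 8.2e-08) for MLN-primed and 1.43 ± 0.098 (adjusted p = 5.3e-07) for spleen-primed cells, the highest of any member in both comparisons. Eif1a, the second eIF1A gene and a close copy of Eif1ax, had 34.4, 29.1 and 27.6 FPKM in MLN-primed cells, 24.2, 23.1 and 21.1 FPKM in spleen-primed cells and 23.0, 17.9 and 17.0 FPKM in naive cells. It was higher in MLN-primed than in naive cells (0.64 ± 0.12, adjusted p = 0.0008), a call lost under quantile normalization (0.30, adjusted p = 0.057), whereas spleen-primed and naive values overlapped. Since FPKM of close copies depend on how shared reads were divided, the split between Eif1ax and Eif1a is uncertain, and the ratio of the first to the second was 7.12, 6.92 and 7.33 in MLN-primed cells, 7.66, 7.13 and 7.45 in spleen-primed cells and 2.95, 3.29 and 3.55 in naive cells. Between MLN-primed and spleen-primed cells both rose, by 0.35 ± 0.098 (adjusted p = 0.023) and 0.39 ± 0.12 (adjusted p = 0.035). These 2 calls did not hold under every setting: Eif1ax lost its call without spleen-primed 2, spleen-primed 3 or MLN-primed 1 (adjusted p = 0.059 to 0.078) and Eif1a without spleen-primed 1, spleen-primed 2, spleen-primed 3, MLN-primed 1 or MLN-primed 2 (adjusted p = 0.054 to 0.095), and under median-of-ratios scaling the adjusted p were 0.078 and 0.079.

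Eif1, the factor that guards start codon choice, had 333, 314 and 353 FPKM in MLN-primed cells, 301, 278 and 305 FPKM in spleen-primed cells and 425, 496 and 368 FPKM in naive cells. Every primed library lay below every naive one. The differences from naive cells were -0.36 ± 0.10 (adjusted p = 0.0096) for MLN-primed and -0.53 ± 0.10 (adjusted p = 0.00096) for spleen-primed cells. Its paralogue Eif1b had 78.2, 62.5 and 63.5 FPKM in MLN-primed cells, 73.7, 66.7 and 64.0 FPKM in spleen-primed cells and 70.9, 57.6 and 50.3 FPKM in naive cells, with all 3 groups overlapping and no comparison past the threshold. Without naive 1 it was higher than naive cells in both primed groups (0.33, adjusted p = 0.03 for MLN-primed and 0.33, adjusted p = 0.029 for spleen-primed cells), whereas quantile normalization made it lower in MLN-primed cells (-0.34, adjusted p = 0.034). Eif1ad, a protein with an eIF1A-like domain, rose in both primed groups against naive cells, in spleen-primed cells not under quantile normalization (0.081, adjusted p = 0.31), and averaged 39.1 ± 0.746 FPKM in MLN-primed cells, 34.4 ± 1.90 FPKM in spleen-primed cells and 25.5 ± 1.82 FPKM in naive cells.

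The eIF2 subunit genes, which encode the carrier of initiator tRNA, rose together in primed cells and were higher again in MLN-primed cells. All 3 that are expressed, and the related factors Eif2a and Eif2d, rose in both primed groups against naive cells, and all but Eif2d rose in MLN-primed against spleen-primed cells. The median difference of these 5 genes was 0.49 between MLN-primed and spleen-primed cells, 1.23 between MLN-primed and naive cells and 0.71 between spleen-primed and naive cells. Of all genes, 17.3%, 45.5% and 43.1% rose in these comparisons. Eif2s1, the alpha subunit that the eIF2 kinases phosphorylate, had 101, 86.2 and 84.9 FPKM in MLN-primed cells, 67.1, 66.2 and 58.8 FPKM in spleen-primed cells and 32.0, 26.7 and 28.1 FPKM in naive cells. The groups did not overlap, and the difference was 0.49 ± 0.095 (adjusted p = 0.0039) between MLN-primed and spleen-primed cells, 1.61 ± 0.095 (adjusted p = 1.3e-07) between MLN-primed and naive cells and 1.12 ± 0.095 (adjusted p = 2.5e-06) between spleen-primed and naive cells. Eif2s2, the beta subunit, had 137, 122 and 122 FPKM in MLN-primed cells, 91.3, 88.6 and 84.7 FPKM in spleen-primed cells and 52.3, 52.1 and 55.8 FPKM in naive cells. Eif2s3x, the gamma subunit that binds GTP and the tRNA, had 188, 159.8 and 159 FPKM in MLN-primed cells, 123, 121 and 113 FPKM in spleen-primed cells and 94.2, 93.6 and 93.8 FPKM in naive cells. Of the subunits, the gamma subunit thus differed least from naive cells and the alpha subunit most: the differences in MLN-primed cells were 0.84 ± 0.075 for Eif2s3x, 1.23 ± 0.068 for Eif2s2 and 1.61 ± 0.095 for Eif2s1. For Eif2s3x in spleen-primed cells the difference of 0.34 ± 0.075 (adjusted p = 0.0023) reversed under quantile normalization, to -0.23 (adjusted p = 0.005), and did not pass under median-of-ratios scaling (0.21, adjusted p = 0.065). Between MLN-primed and spleen-primed cells, the differences of the 3 subunits were 0.49 ± 0.095, 0.52 ± 0.068 and 0.50 ± 0.075 for alpha, beta and gamma.

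Eif2d, a factor that can place tRNA on the ribosome without eIF2 and acts in ribosome recycling, followed another pattern. It had 52.8, 43.3 and 49.0 FPKM in MLN-primed cells, 48.9, 49.2 and 45.7 FPKM in spleen-primed cells and 16.6, 20.5 and 19.0 FPKM in naive cells. Both primed groups were well above naive cells, by 1.32 ± 0.095 (adjusted p = 5.5e-07) and 1.32 ± 0.095 (adjusted p = 7.4e-07), but they overlapped each other and differed by 0.0089 ± 0.095 (adjusted p = 0.96). Eif2a, a single-chain factor that is not the eIF2 alpha subunit, averaged 54.0 ± 2.60 FPKM in MLN-primed cells, 42.1 ± 1.64 FPKM in spleen-primed cells and 25.7 ± 2.05 FPKM in naive cells, with no overlap between groups.

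The 5 genes of eIF2B, the exchange factor of eIF2, all rose in both primed groups against naive cells. Of all genes, 45.5% rose there in MLN-primed and 43.1% in spleen-primed cells. In MLN-primed against spleen-primed cells 4 of the 5 rose, against 17.3% of all genes. The summed level of the 5 was 209, 197 and 204 FPKM in MLN-primed cells, 155, 160.0 and 150.1 FPKM in spleen-primed cells and 90.9, 96.2 and 102 FPKM in naive cells. Eif2b3, the gamma subunit, had 22.0, 22.2 and 21.7 FPKM in MLN-primed cells, 12.9, 12.2 and 12.4 FPKM in spleen-primed cells and 9.48, 10.2 and 8.40 FPKM in naive cells. Its MLN-primed minus spleen-primed difference of 0.77 ± 0.080 (adjusted p = 0.00017) was the largest of any member, and it passed without each library in turn. Eif2b1, the alpha subunit, had 51.7, 45.6 and 47.4 FPKM in MLN-primed cells, 33.5, 32.1 and 30.5 FPKM in spleen-primed cells and 16.0, 15.2 and 16.5 FPKM in naive cells. The 3 groups were again separate, with differences of 0.57 ± 0.072 (adjusted p = 0.00045) between MLN-primed and spleen-primed cells and 1.54 ± 0.072 (adjusted p = 2.5e-08) between MLN-primed and naive cells. Eif2b5, the catalytic epsilon subunit, averaged 55.3 ± 1.94 FPKM in MLN-primed cells, 41.3 ± 1.41 FPKM in spleen-primed cells and 21.8 ± 2.93 FPKM in naive cells. Eif2b4, the delta subunit, averaged 32.1 ± 1.96 FPKM in MLN-primed cells, 25.6 ± 1.15 FPKM in spleen-primed cells and 18.0 ± 1.89 FPKM in naive cells, and its difference between the primed groups lost its call without spleen-primed 1, spleen-primed 2, MLN-primed 2 or MLN-primed 3 (adjusted p = 0.059 to 0.085). Eif2b2, the beta subunit, was the exception, at 45.6 ± 2.03 FPKM in MLN-primed cells, 43.6 ± 3.79 FPKM in spleen-primed cells and 31.1 ± 1.65 FPKM in naive cells, with overlapping primed groups and a difference between them of 0.065 ± 0.079 (adjusted p = 0.58). Its calls against naive cells were lost under quantile normalization (0.13, adjusted p = 0.18 for MLN-primed and 0.095, adjusted p = 0.32 for spleen-primed cells). The levels of the 5 subunit genes lay closest together in MLN-primed cells, where the highest was 2.59, 2.40 and 2.57 times the lowest, against 3.34, 3.90 and 3.24 times in spleen-primed cells and 3.09, 3.18 and 3.75 times in naive cells. Eif2b3 was the lowest of the 5 in each group by its mean.

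The genes of eIF3, the large scaffold that joins the small ribosomal subunit to eIF4G and the messenger RNA, did not move as 1 block. Of 14 genes, 5 rose and 1 fell in MLN-primed against spleen-primed cells (17.3% and 13.1% of all genes). In MLN-primed against naive cells 8 rose and 4 fell, or 57.1% and 28.6%, against 45.5% and 33.2% of all genes. In spleen-primed against naive cells 6 rose and 3 fell, or 42.9% and 21.4%, against 43.1% and 32.7% of all genes. The share that rose there is near that of all genes and is not a result about eIF3. The median differences of the eIF3 genes were 0.19, 0.59 and 0.18 in these comparisons. The counts against naive cells depended on the scaling. Under quantile normalization 3 rose and 5 fell in MLN-primed cells and 2 rose and 7 fell in spleen-primed cells, with medians of 0.017 and -0.26. Under median-of-ratios scaling 8 rose and 5 fell in MLN-primed cells and 6 rose and 3 fell in spleen-primed cells. The shares of all genes called under these 2 scalings are not given here, so these counts are not set against them. Eif3b, Eif3c, Eif3d, Eif3i, Eif3j2 and Eif3l rose in both primed groups, Eif3a and Eif3g passed only in the MLN-primed comparison, Eif3e, Eif3f and Eif3m fell in both, and Eif3h fell in MLN-primed cells. Eif3k did not pass in any comparison, but was lower in MLN-primed than in naive cells under quantile normalization (-0.78, adjusted p = 4.7e-06), under median-of-ratios scaling (-0.34, adjusted p = 0.033) and without MLN-primed 1 (-0.25, adjusted p = 0.043), and lower in spleen-primed than in naive cells under quantile normalization (-0.65, adjusted p = 2.1e-05). Under quantile normalization the sign turned negative for Eif3g in MLN-primed cells (-0.13) and for Eif3c (-0.037), Eif3d (-0.27) and Eif3i (-0.14) in spleen-primed cells, while the members that fell kept their direction under both scalings.

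Eif3b, whose product forms a module with those of Eif3g and Eif3i, had 174, 178 and 177 FPKM in MLN-primed cells, 108, 114 and 118 FPKM in spleen-primed cells and 67.1, 65.4 and 62.8 FPKM in naive cells. The groups were fully separate with little spread within each, and the difference between MLN-primed and spleen-primed cells was 0.63 ± 0.058 (adjusted p = 8.5e-05), the smallest adjusted p of any member in that comparison. Eif3f, one of the 2 subunits with an MPN domain, had 247, 238 and 212 FPKM in MLN-primed cells, 295, 295 and 279.7 FPKM in spleen-primed cells and 384, 416 and 383 FPKM in naive cells. It was the 1 member that fell in MLN-primed against spleen-primed cells (-0.32 ± 0.073, adjusted p = 0.0084), and it fell in MLN-primed against naive cells by 0.76 on the log2 scale (adjusted p = 4.7e-06). The call against spleen-primed cells held without each library in turn but not without all 3 libraries numbered 3 (-0.29, adjusted p = 0.079). Eif3h, the other MPN subunit, had 457, 383 and 414 FPKM in MLN-primed cells, 526, 524 and 426 FPKM in spleen-primed cells and 493, 589 and 529 FPKM in naive cells, so that its groups overlapped in MLN-primed against spleen-primed cells. That difference, -0.23 ± 0.11 (adjusted p = 0.13), passed without spleen-primed 3 (-0.33, adjusted p = 0.035). Eif3e, a core subunit that contacts eIF4G, had 315, 263 and 246 FPKM in MLN-primed cells, 277, 285 and 243 FPKM in spleen-primed cells and 398, 418 and 399 FPKM in naive cells. Both primed groups lay wholly below naive cells, by -0.57 ± 0.098 (adjusted p = 0.00038) for MLN-primed and -0.59 ± 0.098 (adjusted p = 0.0003) for spleen-primed cells, and overlapped each other. Eif3m averaged 209 ± 26.8 FPKM in MLN-primed cells, 208 ± 16.7 FPKM in spleen-primed cells and 250.0 ± 10.8 FPKM in naive cells. Its calls were among the weakest of the eIF3 genes: against naive cells, the MLN-primed call was lost without naive 1, naive 2, MLN-primed 2 or MLN-primed 3 (adjusted p = 0.051 to 0.11) and the spleen-primed call without naive 1, naive 2 or spleen-primed 3 (adjusted p = 0.052 to 0.1).

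The subunit genes that fell were abundant in naive cells and most of those that rose were not, and the transcript levels of the subunits lay closer together in primed cells. Leaving out Eif3j1 and Eif3j2, the coefficient of variation over the other 12 subunit genes was 44.4, 33.7 and 38.0% in MLN-primed cells, 59.2, 57.7 and 47.7% in spleen-primed cells and 70.6, 75.0 and 71.6% in naive cells. No library of one group overlapped another group. The highest subunit was 5.64, 3.53 and 3.95 times the lowest in MLN-primed cells, 8.61, 8.50 and 5.03 times in spleen-primed cells and 8.48, 11.2 and 8.91 times in naive cells, and here the spleen-primed and naive ranges overlapped. The median subunit had 228, 199 and 192 FPKM in MLN-primed cells, 199, 205 and 179 FPKM in spleen-primed cells and 152, 175 and 157 FPKM in naive cells. These are descriptions over genes of 1 complex, with no test.

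**Figure D3:**
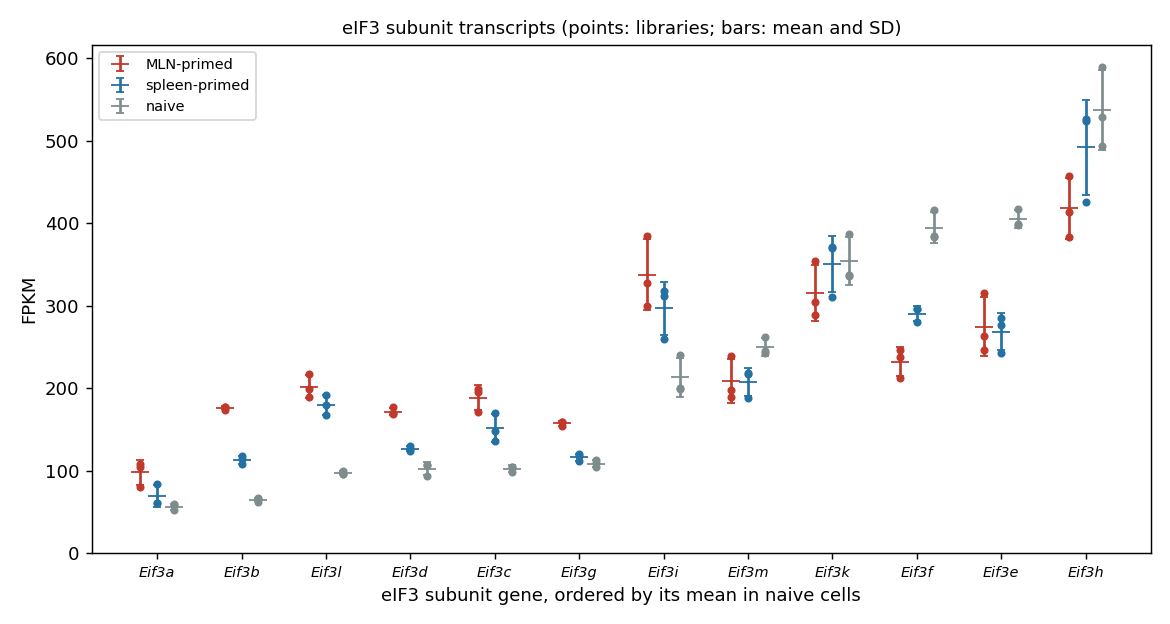
FPKM of 12 eIF3 subunit genes (Eif3j1 and Eif3j2 left out) in MLN-primed, spleen-primed and naive cells, with points for libraries and bars for mean and SD, ordered by the naive mean. The genes at the left, such as Eif3b and Eif3l, were higher in primed cells, whereas Eif3f and Eif3e at the right were lower.

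Eif3j1 and Eif3j2 are near-identical copies of the gene of a loosely bound subunit, and the deposited values divide them in an unusual way. Eif3j1 had 0.0533, 0.0551 and 15.9 FPKM in MLN-primed cells, 0.0513, 0.120 and 9.48 FPKM in spleen-primed cells and 0.0698, 0.0559 and 12.3 FPKM in naive cells. It was therefore above 9 FPKM in each library numbered 3 and at most 0.12 FPKM in the other 6, in all 3 groups alike. No other gene of the table was over 5 FPKM in those 3 libraries and under 1 FPKM in the other 6, and 0 genes showed the opposite. Eif3j2 had 72.4, 70.2 and 58.0 FPKM in MLN-primed cells, 52.9, 46.2 and 42.5 FPKM in spleen-primed cells and 36.9, 32.4 and 19.3 FPKM in naive cells, the lowest value of each group being that of library 3. The sum of both was steadier, at 72.4, 70.2 and 73.9 FPKM in MLN-primed cells, 52.9, 46.3 and 52.0 FPKM in spleen-primed cells and 36.9, 32.4 and 31.6 FPKM in naive cells. Whether the reads were shared out differently in the libraries numbered 3 was not tested, and the values of either gene alone are uncertain. With the copies summed, the groups did not overlap and the difference was 0.51 ± 0.079 (adjusted p = 0.0012) between MLN-primed and spleen-primed cells, 1.08 ± 0.079 (adjusted p = 6.4e-07) between MLN-primed and naive cells and 0.57 ± 0.079 (adjusted p = 9e-05) between spleen-primed and naive cells. Eif3j2 alone did not pass between the primed groups (0.49 ± 0.20, adjusted p = 0.097).

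Among the eIF4 genes, 2 helicases that share their function in eIF4F changed in opposite directions between primed and naive cells. Of 11 tested eIF4 genes, the binding inhibitors apart, 6 rose and 0 fell in MLN-primed against spleen-primed cells (17.3% and 13.1% of all genes). In MLN-primed against naive cells 7 rose and 1 fell (45.5% and 33.2% of all genes). In spleen-primed against naive cells 6 rose and 2 fell, or 54.5% and 18.2%, against 43.1% and 32.7% of all genes. Eif4a1, the main eIF4A helicase (chr11:69666936-69672423 in GRCm38.p6), had 1023, 845 and 865 FPKM in MLN-primed cells, 613, 602 and 555 FPKM in spleen-primed cells and 329.6, 290.4 and 304 FPKM in naive cells. Eif4a2, its paralogue (chr16:23107468-23114132), had 43.2, 42.8 and 50.9 FPKM in MLN-primed cells, 43.1, 35.4 and 35.6 FPKM in spleen-primed cells and 131, 159 and 162 FPKM in naive cells. Eif4a1 thus separated all 3 groups with naive cells lowest, while Eif4a2 separated naive cells, the highest, from both primed groups, which overlapped. Eif4a1 differed by 0.62 ± 0.089 (adjusted p = 0.00083) between MLN-primed and spleen-primed cells, by 1.56 ± 0.089 (adjusted p = 9.9e-08) between MLN-primed and naive cells and by 0.94 ± 0.089 (adjusted p = 5.5e-06) between spleen-primed and naive cells. Eif4a2 differed from naive cells by -1.70 ± 0.11 (adjusted p = 2.9e-07) in MLN-primed and -1.96 ± 0.11 (adjusted p = 1.3e-07) in spleen-primed cells. As FPKM are per length, the levels can be set against each other: the ratio of Eif4a1 to Eif4a2 was 23.6, 19.7 and 17.0 in MLN-primed cells, 14.2, 17.0 and 15.6 in spleen-primed cells and 2.52, 1.83 and 1.88 in naive cells. The sum of both was 1066, 888 and 916 FPKM in MLN-primed cells, 656, 638 and 591 FPKM in spleen-primed cells and 461, 449 and 466 FPKM in naive cells. Another helicase of the family, Eif4a3, belongs to the exon junction complex on spliced messenger RNA and had 197, 188 and 188 FPKM in MLN-primed cells, 164, 168 and 157 FPKM in spleen-primed cells and 82.7, 75.1 and 76.5 FPKM in naive cells. It rose against naive cells like Eif4a1, by 1.28 ± 0.061 (adjusted p = 2.8e-08) in MLN-primed and 1.05 ± 0.061 (adjusted p = 1.5e-07) in spleen-primed cells. Its smaller difference between the primed groups, 0.23 ± 0.061 (adjusted p = 0.019), was lost without spleen-primed 1, spleen-primed 3, MLN-primed 1 or MLN-primed 3 (adjusted p = 0.051 to 0.061) and under both other scalings.

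The sequences upstream of the 2 helicase genes are shown because the genes moved in opposite directions. They are the 250 bases before the annotated start site, from RefSeq (GRCm38.p6), printed 5′ to 3′ on the gene's strand, for Eif4a1 chr11:69672424-69672673 on the minus strand and for Eif4a2 chr16:23107218-23107467 on the plus strand. Capitals mark the E-box CACGTG, the letters bound by MYC and MAX among other factors, which read the same on both strands.
Eif4a1: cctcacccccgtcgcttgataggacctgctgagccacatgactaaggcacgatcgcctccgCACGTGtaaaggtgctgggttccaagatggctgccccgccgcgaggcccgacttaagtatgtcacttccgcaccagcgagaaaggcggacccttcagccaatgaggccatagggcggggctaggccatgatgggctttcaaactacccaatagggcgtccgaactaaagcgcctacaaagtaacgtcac
Eif4a2: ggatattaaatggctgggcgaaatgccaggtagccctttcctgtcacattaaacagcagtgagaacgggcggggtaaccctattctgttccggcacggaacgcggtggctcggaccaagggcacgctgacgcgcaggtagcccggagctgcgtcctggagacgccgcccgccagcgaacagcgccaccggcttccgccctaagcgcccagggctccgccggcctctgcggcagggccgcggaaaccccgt
The Eif4a1 window holds 1 E-box and the Eif4a2 window none. Of the 37 members with a window of 250 bases before to 50 after a start site in that table, 8 held CACGTG (21.6%), as did 8.09% of all 27025 genes with a window. Those 27025 genes were not limited to the 10185 that passed the filter on low values, whereas 47 of the 49 members passed it. The 2 shares are thus of unlike sets, and their difference was not tested. The 8 members with CACGTG were Eif1b, Eif3a, Eif3f, Eif3k, Eif4a1, Eif4e, Eif4g1 and Eif4h. The other 2 subunits of eIF4F are among them. For each, 30 bases around an E-box before a start site are given on the plus strand. They are chr3:138527192-138527221 for Eif4e and chr16:20672661-20672690 for Eif4g1. The Eif4e stretch lies before the later of its annotated start sites, in the window chr3:138527018-138527317. The window of its earlier start site, chr3:138525941-138526240, held 0 E-boxes.
Eif4e: ggacacgtccgtCACGTGggcaggagccgg
Eif4g1: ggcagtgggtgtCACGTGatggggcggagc
The 8 genes did not share 1 pattern of expression, since Eif4a1, Eif4e and Eif4h rose and Eif3f fell in both primed groups against naive cells. A match is a description of the letters in the window and does not show binding.

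Eif4e, the cap-binding protein, rose with eIF4A1. It had 68.3, 60.3 and 61.7 FPKM in MLN-primed cells, 50.4, 49.2 and 42.6 FPKM in spleen-primed cells and 24.9, 20.5 and 23.6 FPKM in naive cells. The 3 groups did not overlap, and the difference was 0.42 ± 0.095 (adjusted p = 0.0088) between MLN-primed and spleen-primed cells, 1.43 ± 0.095 (adjusted p = 3.1e-07) between MLN-primed and naive cells and 1.01 ± 0.095 (adjusted p = 5.1e-06) between spleen-primed and naive cells. Eif4e2, a cap-binding relative that does not bind eIF4G and is known as a repressor, had 72.9, 65.8 and 70.7 FPKM in MLN-primed cells, 73.3, 73.3 and 70.6 FPKM in spleen-primed cells and 33.5, 32.8 and 31.3 FPKM in naive cells. It rose in spleen-primed against naive cells by 1.13 ± 0.063 (adjusted p = 1.1e-07), but the primed groups overlapped, with a difference between them of -0.053 ± 0.063 (adjusted p = 0.57). Eif4e3, a scarcer cap-binding protein, had 6.33, 6.54 and 5.04 FPKM in MLN-primed cells, 7.59, 6.59 and 7.85 FPKM in spleen-primed cells and 5.74, 3.37 and 5.58 FPKM in naive cells and passed only in spleen-primed against naive cells (0.52 ± 0.17, adjusted p = 0.016).

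The scaffold genes were less uniform within groups. Eif4g1, the main scaffold, had 74.7, 126 and 133 FPKM in MLN-primed cells, 54.7, 61.5 and 90.7 FPKM in spleen-primed cells and 56.6, 55.3 and 60.3 FPKM in naive cells. MLN-primed 1 lay far below the other 2 MLN-primed libraries and spleen-primed 3 above the other 2 spleen-primed ones, so that these groups overlapped. The difference of 0.67 ± 0.23 (adjusted p = 0.049) between them just passed and was lost without spleen-primed 1, spleen-primed 2, MLN-primed 2 or MLN-primed 3 (adjusted p = 0.15 to 0.16). Against naive cells Eif4g1 was higher in MLN-primed cells (0.90 ± 0.23, adjusted p = 0.0043), a call lost under quantile normalization (0.34, adjusted p = 0.18), and its spleen-primed values overlapped the naive ones. Eif4g3, a second scaffold, had 5.49, 16.1 and 17.9 FPKM in MLN-primed cells, 5.87, 7.26 and 15.5 FPKM in spleen-primed cells and 13.2, 15.7 and 18.0 FPKM in naive cells and passed in no comparison. Without spleen-primed 3 it was lower in spleen-primed than in naive cells (-1.13, adjusted p = 0.024), as under quantile normalization (-0.90, adjusted p = 0.044). With MLN-primed 1 also left out it was higher in MLN-primed cells against spleen-primed ones (1.25, adjusted p = 0.00038). MLN-primed 1 was lowest and spleen-primed 3 highest in its group, so leaving them out can only widen these differences. Eif4g2, which lacks the eIF4E-binding part and is known as DAP5, had 180.5, 178 and 163 FPKM in MLN-primed cells, 151, 146 and 148 FPKM in spleen-primed cells and 148, 124 and 127 FPKM in naive cells. It was steady within groups and higher in MLN-primed than in naive cells (0.39 ± 0.078, adjusted p = 0.001), a difference that reversed to -0.26 (adjusted p = 0.0094) under quantile normalization.

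The within-group order of Eif4g1 recurred in other members and was turned round in more of them. In 12 of the 47 tested members, Eif4g1, Eif4g3, Eif5b and Eif3a among them, MLN-primed 1 was the lowest MLN-primed library and spleen-primed 3 the highest spleen-primed one. In 25 members MLN-primed 1 was the highest and spleen-primed 3 the lowest. How many of all tested genes showed either order was not counted, so these counts are not a result about the members. The transcripts of the 12 had a median length of 3748 bases in the annotation and ranged from 744 (Eif4ebp3) to 7797 (Eif5b), and those of the 25 had a median of 2081 and ranged from 777 to 5172 (Eif1ax), so that the lengths of both sets overlapped. Over all tested genes, log2 FPKM relative to the group's mean changed per doubling of transcript length by -0.090 in MLN-primed 1, 0.063 in MLN-primed 2 and 0.027 in MLN-primed 3. The same slopes were -0.051, -0.027 and 0.079 in the 3 spleen-primed libraries and 0.026, -0.049 and 0.022 in the naive ones. The lowest slope was that of MLN-primed 1 and the highest that of spleen-primed 3. The part of these slopes in the values of single genes was not tested. Eif3a, the largest eIF3 subunit, had 81.0, 109 and 105 FPKM in MLN-primed cells, 61.1, 61.6 and 84.6 FPKM in spleen-primed cells and 58.2, 52.6 and 59.4 FPKM in naive cells, and its difference between the primed groups of 0.51 ± 0.14 (adjusted p = 0.024) was lost without spleen-primed 1, spleen-primed 2, MLN-primed 2 or MLN-primed 3 (adjusted p = 0.082 to 0.095). Eif3c, a core eIF3 subunit, averaged 189 ± 15.3 FPKM in MLN-primed cells and 152 ± 16.9 FPKM in spleen-primed cells and lost its call between them without spleen-primed 1, spleen-primed 2, MLN-primed 2 or MLN-primed 3 (adjusted p = 0.085 to 0.097).

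**Figure D4:**
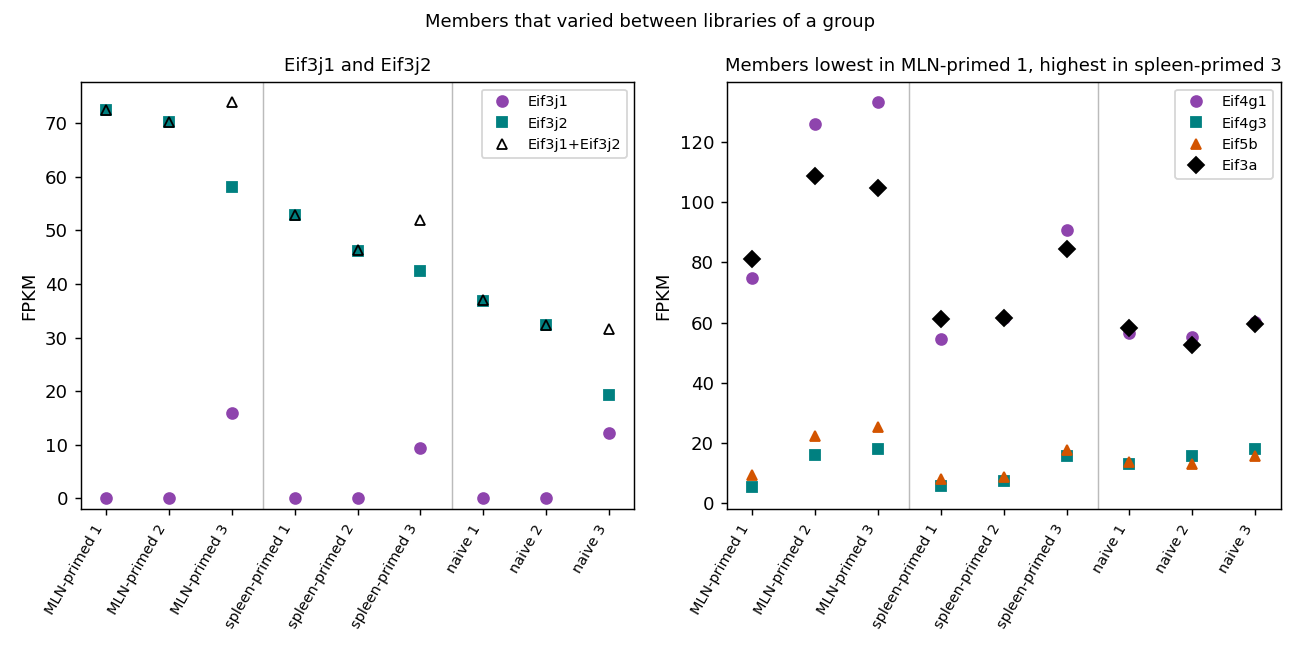
FPKM in each of the 9 libraries of Eif3j1, Eif3j2 and their sum (left) and of Eif4g1, Eif4g3, Eif5b and Eif3a, chosen after their values were seen (right). Eif3j1 is near 0 except in the libraries numbered 3, and the 4 genes at the right are lowest in MLN-primed 1 and highest in spleen-primed 3 within their groups.

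The 2 stimulators of the eIF4A helicase went separate ways. Eif4h averaged 212 ± 1.34 FPKM in MLN-primed cells, 182 ± 7.83 FPKM in spleen-primed cells and 85.5 ± 6.11 FPKM in naive cells, and rose in both primed groups against naive cells. Its difference between the primed groups, 0.22 ± 0.067 (adjusted p = 0.031), was lost without spleen-primed 1, spleen-primed 2, MLN-primed 1, MLN-primed 2 or MLN-primed 3 (adjusted p = 0.061 to 0.11) and under both other scalings. Eif4b, a target of S6 kinase, had 122, 144 and 148 FPKM in MLN-primed cells, 93.6, 92.3 and 122 FPKM in spleen-primed cells and 154, 167 and 169 FPKM in naive cells. Naive cells were highest and spleen-primed cells lowest, with a difference from naive cells of -0.25 ± 0.11 (adjusted p = 0.071) in MLN-primed cells and -0.68 ± 0.11 (adjusted p = 0.00037) in spleen-primed cells. The MLN-primed difference from naive cells passed under median-of-ratios scaling (-0.42, adjusted p = 0.0034) and under quantile normalization (-0.87, adjusted p = 7.2e-05). The difference between the primed groups themselves was 0.43 ± 0.11 (adjusted p = 0.018) and was lost without spleen-primed 1, spleen-primed 2, MLN-primed 2 or MLN-primed 3 (adjusted p = 0.061 to 0.078).

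The eIF4E-binding inhibitors did not follow eIF4E, and none of the 4 passed between MLN-primed and spleen-primed cells (0 by limma, and 0 at an unadjusted p under 0.05; no other tool was run). This held for all 9 libraries together: Eif4enif1 passed without spleen-primed 3 (0.56, adjusted p = 0.028), without MLN-primed 1 (0.55, adjusted p = 0.03) and without both (0.74, adjusted p = 0.00053). For Eif4enif1, MLN-primed 1 was the lowest MLN-primed library and spleen-primed 3 the highest spleen-primed one. Leaving these out can only widen the difference, so nothing is read from those calls. Eif4ebp1 had 16.1, 14.9 and 15.2 FPKM in MLN-primed cells, 14.4, 13.2 and 15.0 FPKM in spleen-primed cells and 8.29, 5.91 and 11.6 FPKM in naive cells. It was the 1 binding protein gene that rose in both primed groups, by 0.81 ± 0.18 (adjusted p = 0.0018) in MLN-primed and 0.71 ± 0.18 (adjusted p = 0.0045) in spleen-primed against naive cells. Eif4ebp2, the most abundant of the 3, had 56.4, 71.9 and 65.3 FPKM in MLN-primed cells, 56.1, 64.3 and 69.0 FPKM in spleen-primed cells and 85.3, 76.7 and 86.7 FPKM in naive cells. Eif4ebp3, the least abundant, had 1.89, 3.41 and 3.80 FPKM in MLN-primed cells, 3.38, 2.92 and 4.37 FPKM in spleen-primed cells and 6.30, 6.88 and 7.42 FPKM in naive cells. Both lay below naive cells in every primed library, Eif4ebp2 by -0.36 ± 0.11 (adjusted p = 0.0096) in MLN-primed and -0.39 ± 0.11 (adjusted p = 0.0067) in spleen-primed cells and Eif4ebp3 by -0.99 ± 0.19 (adjusted p = 0.00069) and -0.80 ± 0.19 (adjusted p = 0.0031). Without the 3 libraries numbered 3, Eif4ebp2 did not pass in MLN-primed against naive cells (adjusted p = 0.058). Of the summed level of the 3 genes, Eif4ebp1 made up 21.6, 16.5 and 18.1% in MLN-primed cells, 19.5, 16.5 and 17.0% in spleen-primed cells and 8.30, 6.60 and 11.0% in naive cells. Eif4enif1, which carries eIF4E into the nucleus and is known as 4E-T, averaged 23.9 ± 5.10 FPKM in MLN-primed cells, 18.3 ± 4.59 FPKM in spleen-primed cells and 14.9 ± 1.06 FPKM in naive cells, and rose in MLN-primed against naive cells (0.63 ± 0.18, adjusted p = 0.0094).

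Set against Eif4e, the binding proteins were scarcer in primed cells. The ratio of the 3 Eif4ebp genes to Eif4e was 1.09, 1.49 and 1.37 in MLN-primed cells, 1.47, 1.63 and 2.08 in spleen-primed cells and 4.01, 4.36 and 4.48 in naive cells. Each primed library was under 2.1 and each naive library over 4, while the primed groups overlapped. On the log2 scale the ratio differed by -1.71 ± 0.14 between MLN-primed and naive cells and by -1.33 ± 0.16 between spleen-primed and naive cells (SE), each with an exact two-sided permutation p of 0.1 (0.15 adjusted over the 3 comparisons), the smallest possible. Between MLN-primed and spleen-primed cells it differed by -0.39 ± 0.20 (exact permutation p = 0.2, also 0.2 adjusted). The summed binding protein level itself was 83.0 ± 8.0 FPKM in MLN-primed cells, 80.9 ± 7.19 FPKM in spleen-primed cells and 98.4 ± 8.21 FPKM in naive cells. These are transcript levels, which do not give the phosphorylation that sets binding.

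**Figure D5:**
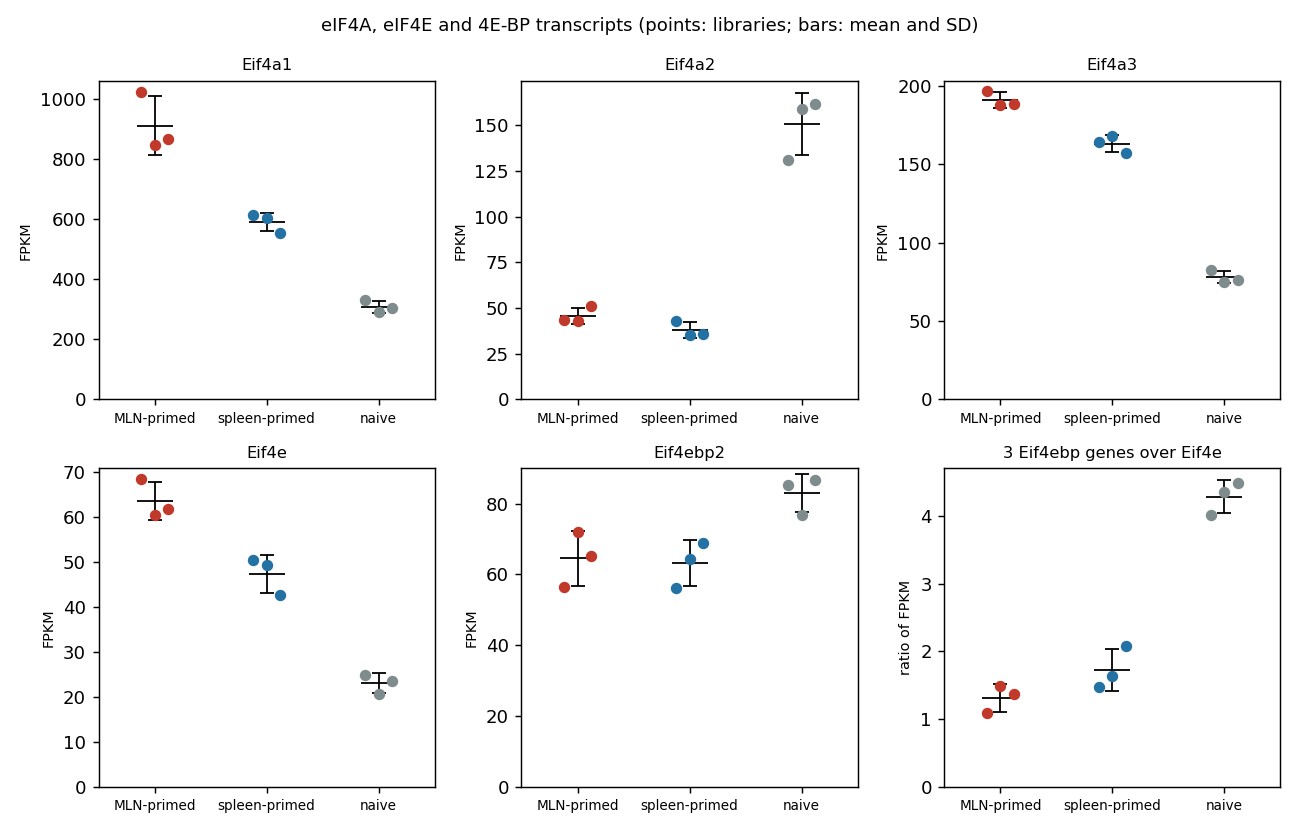
FPKM of Eif4a1, Eif4a2, Eif4a3, Eif4e and Eif4ebp2, and the ratio of the 3 Eif4ebp genes to Eif4e, in MLN-primed, spleen-primed and naive cells, with points for libraries and bars for mean and SD. Eif4a1 and Eif4e are highest in MLN-primed cells, Eif4a2 in naive cells, and the ratio is over 4 in each naive library.

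The factors of the last steps moved differently from one another. Eif5, which makes eIF2 hydrolyse its GTP at the start codon, had 83.2, 71.8 and 74.9 FPKM in MLN-primed cells, 61.8, 53.7 and 53.4 FPKM in spleen-primed cells and 82.3, 66.8 and 81.2 FPKM in naive cells. MLN-primed and naive values overlapped around the same mean, and spleen-primed cells lay below both. Under quantile normalization Eif5 was lower in MLN-primed than in naive cells (-0.58, adjusted p = 0.00034). The difference was 0.44 ± 0.10 (adjusted p = 0.0087) between MLN-primed and spleen-primed cells and -0.44 ± 0.10 (adjusted p = 0.0026) between spleen-primed and naive cells. Eif5 was thus, beside Eif4b, 1 of 2 members that fell in spleen-primed against naive cells and rose in MLN-primed against spleen-primed cells. Eif5b, which joins the large ribosomal subunit, had 9.39, 22.2 and 25.4 FPKM in MLN-primed cells, 8.06, 8.60 and 17.6 FPKM in spleen-primed cells and 13.6, 13.1 and 15.7 FPKM in naive cells, with wide spread in both primed groups and no comparison past the threshold. Its difference between MLN-primed and spleen-primed cells, 0.66 ± 0.35 (adjusted p = 0.2), passed without spleen-primed 3 (0.99, adjusted p = 0.0495), without MLN-primed 1 (1.08, adjusted p = 0.014) and without both (1.41, adjusted p = 7e-05). Its MLN-primed minus naive difference passed without MLN-primed 1 (0.71, adjusted p = 0.029). MLN-primed 1 was lowest and spleen-primed 3 highest in its group for Eif5b. Leaving them out can only widen these differences, so nothing is read from those calls. Eif6, which keeps free large subunits from joining and acts in their making, had 133, 107 and 122 FPKM in MLN-primed cells, 113, 117 and 103 FPKM in spleen-primed cells and 57.9, 63.5 and 55.4 FPKM in naive cells. It rose in both primed groups, by 1.02 ± 0.093 (adjusted p = 3.4e-06) in MLN-primed and 0.90 ± 0.093 (adjusted p = 9.9e-06) in spleen-primed against naive cells, and the primed groups overlapped.

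Genes that work beside these factors, outside the members, were followed in lists taken by function. Of 9 tested genes of other initiation and recycling factors, 7 rose and 0 fell in MLN-primed against spleen-primed cells, where 17.3% of all genes rose and 13.1% fell, with a median log2 difference of 0.45 against 0.03 over all genes. Against naive cells, 9 rose in MLN-primed cells, where 45.5% of all genes rose, and 6 rose and 2 fell in spleen-primed cells, against 43.1% and 32.7% of all genes. Under quantile normalization 5 rose and 2 fell in MLN-primed against naive cells, the 2 being Bzw2 and Ddx3x, whose sign reversed. Abce1, the recycling factor that splits ribosomes, averaged 73.3 ± 6.54 FPKM in MLN-primed cells, 42.4 ± 0.558 FPKM in spleen-primed cells and 35.9 ± 3.13 FPKM in naive cells, and its difference between MLN-primed and spleen-primed cells was 0.77 ± 0.084 (adjusted p = 0.0002). The list of eIF5A, its relative and the 2 enzymes of its hypusine residue (4 genes) had 4 of 4 members that rose against naive cells in both primed groups, or 3 of 4 in spleen-primed cells under quantile normalization. Eif5a averaged 1392 ± 144 FPKM in MLN-primed cells, 912 ± 59.5 FPKM in spleen-primed cells and 373 ± 10.6 FPKM in naive cells, with a difference of 0.61 ± 0.086 (adjusted p = 0.0008) between MLN-primed and spleen-primed cells. Of 12 regulators around mTORC1 and eIF4F, 0 rose and 1 fell in MLN-primed against spleen-primed cells, while 5 rose and 4 fell in MLN-primed against naive cells and 5 rose and 3 fell in spleen-primed against naive cells. The shares against naive cells, 41.7% and 33.3% in MLN-primed and 41.7% and 25% in spleen-primed cells, are near those of all genes and are not a result about this list. The 1 that fell between the primed groups was Pdcd4, an inhibitor that binds eIF4A, which averaged 19.2 ± 3.23 FPKM in MLN-primed cells, 37.3 ± 5.46 FPKM in spleen-primed cells and 188 ± 18.0 FPKM in naive cells. It differed by -0.92 ± 0.14 (adjusted p = 0.001) between MLN-primed and spleen-primed cells, by -3.24 ± 0.14 (adjusted p = 1.2e-08) between MLN-primed and naive cells and by -2.31 ± 0.14 (adjusted p = 1.8e-07) between spleen-primed and naive cells. Among 5 genes of poly(A)-binding proteins and their regulators, Pabpc4 was the 1 that rose in MLN-primed against spleen-primed cells. It differed by 1.07 ± 0.088 (adjusted p = 4.9e-05). It averaged 86.1 ± 1.62 FPKM in MLN-primed cells, 40.7 ± 2.38 FPKM in spleen-primed cells and 26.6 ± 3.25 FPKM in naive cells. This 20% of the list is near the 17.3% of all genes and is not a result about the list. Against naive cells Pabpc4 alone rose, in both primed groups. Paip2 fell in both, with -1.07 (adjusted p = 9.4e-07) in MLN-primed and -0.87 (adjusted p = 5.2e-06) in spleen-primed cells. Paip2b fell in MLN-primed cells (-0.21, adjusted p = 0.025). The list's median differences from naive cells were -0.18 in MLN-primed and -0.15 in spleen-primed cells.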

How the data were processed

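Messenger RNA libraries, made with a stranded kit per the labels' protocols, were deposited as 1 gene table. Its values are FPKM that the authors computed before deposit; the submitters' processing notes name TopHat, Cufflinks and the build mm10, without versions. FPKM are relative to each library's total, so a few abundant genes can lower all others, and read numbers, hence counting error, are unknown. A transcript-level table was not used. Of 24067 rows, 131 without a symbol (0.0479% of FPKM) were left out. A single limma (3.58.1, R 4.3.3) fit with a mean trend on log2(FPKM + 1) over all 9 libraries covered the 10185 genes with at least 1 FPKM in 3 libraries, with Benjamini-Hochberg adjustment and a threshold of 0.05. The share and the ratio were compared by two-sided exact permutation tests (scipy 1.17.1). Transcript lengths came from GENCODE M21, which had all 49 members and 99.2% of tested genes; gene coordinates and promoters came from RefSeq (GRCm38.p6), which had a promoter window for 37 members. Members given in every library were the 4 highest and the 4 lowest called, non-overlapping members with at least 5 FPKM in the higher group of each comparison, and sets of paralogues. The members and lists were chosen with earlier results of these data known. Alternatives covered the pseudocount, filter, scaling, trend, libraries, replicate block, and length with GC content. The fit was tested on simulated data.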

Additional observations from a re-analysis of the deposited data

How the results depend on the processing

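Under the alternatives tried, no called member changed sign between MLN-primed and spleen-primed cells, and none changed sign in the naive comparisons except under quantile normalization. That setting gave -0.13 for Eif3g and -0.26 for Eif4g2 in MLN-primed minus naive cells, and -0.23 for Eif2s3x, -0.037 for Eif3c, -0.27 for Eif3d and -0.14 for Eif3i in spleen-primed minus naive cells. It also gave 13 and 16 members lower than naive cells, in place of 8 and 9. The members' medians were then 0.24 in MLN-primed and -0.023 in spleen-primed against naive cells, and 0.24 between the primed groups. The all-gene medians under quantile normalization were -0.041, -0.067 and 0.0033 in the same order. The cause was not tested. Median-of-ratios scaling gave medians of 0.26 between the primed groups, 0.57 in MLN-primed minus naive and 0.27 in spleen-primed minus naive cells. Without a filter on low values, with more genes tested, 14 members rose between the primed groups, and the 3 medians were 0.26, 0.66 and 0.34. Without spleen-primed 3 and MLN-primed 1, the members lower in MLN-primed cells against spleen-primed ones were 3 (Eif3f, Eif3h and Eif3k) and the median was 0.25; with the trends in length and GC content removed they were also 3, the same genes. Without the 3 libraries numbered 3, chosen as a setting after seeing Eif3j1, 14 members were higher and 0 lower between the primed groups; fewer libraries were tested. Leaving out 1 library at a time gave 14 to 21 members higher and 1 to 2 lower between the primed groups, with medians of 0.24 to 0.34. It gave 31 to 32 higher and 7 to 9 lower in MLN-primed against naive cells, with medians of 0.72 to 0.80, and 26 to 29 higher and 8 to 9 lower in spleen-primed against naive cells, with medians of 0.34 to 0.44. The share and the ratio kept their direction under the alternatives run for them, but the ratio's difference between the primed groups, -0.39, was -0.12 without spleen-primed 3 and MLN-primed 1, -0.084 with Eif4ebp1 and Eif4ebp2 set over Eif4e, Eif4e2 and Eif4e3, and -0.50 to -0.25 with 1 library left out. A call gained by leaving out the library nearest to the other group is no added evidence, since that step widens the difference by itself. The shares of all genes called were given for the main fit only, so counts under the alternatives are not set against them. The 2 scalings and the filter limit what can be said of members near the threshold, and unknown depth limits those under a few FPKM.

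Libraries with the same number in different groups share only that number in the labels. Their deviations from group means correlated at -0.24 to 0.64 over 9 pairs, 7 of them over 0.1. Pairs of libraries with different numbers gave -0.70 to 0.51 over 18 pairs, 4 of them over 0.1. Whether the number marks a shared batch was not tested. With the replicate number as a block, 24 members were higher and 1 lower between the primed groups, 32 higher and 9 lower in MLN-primed against naive cells, and 28 higher and 10 lower in spleen-primed against naive cells; no call was lost.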

Other observations

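Of 9 tested genes of elongation and termination, 6 rose and 0 fell in MLN-primed against spleen-primed cells, where 17.3% of all genes rose and 13.1% fell. Against naive cells 4 rose and 4 fell in MLN-primed cells (45.5% and 33.2% of all genes) and 3 rose and 5 fell in spleen-primed cells (43.1% and 32.7% of all genes), and nothing is read from these counts of few genes. The release factor Etf1, which reads stop codons, averaged 104 ± 5.42 FPKM in MLN-primed cells, 69.5 ± 1.32 FPKM in spleen-primed cells and 36.8 ± 4.34 FPKM in naive cells. Its partner Gspt1 averaged 43.7 ± 0.983 FPKM in MLN-primed cells, 28.5 ± 0.868 FPKM in spleen-primed cells and 19.8 ± 1.98 FPKM in naive cells, and both rose in each of the 3 comparisons under all scalings tried. Eef1a1, which delivers aminoacyl-tRNA and was the most abundant of the list, averaged 9301 ± 1139 FPKM in MLN-primed cells, 9316 ± 1148 FPKM in spleen-primed cells and 14839 ± 1512 FPKM in naive cells. Between MLN-primed and naive cells it differed by -0.68 ± 0.13 (adjusted p = 0.00091), and by -0.85 under median-of-ratios scaling. Quantile normalization gave 0.17 there and also 0.17 between the primed groups. That setting gives genes of the same rank the same value. It can therefore hide a change of an abundant gene that keeps its rank, and nothing is read from it here. Eef2k, the kinase that blocks elongation factor 2, averaged 1.07 ± 0.0355 FPKM in MLN-primed cells, 0.709 ± 0.0832 FPKM in spleen-primed cells and 3.39 ± 0.182 FPKM in naive cells, and fell against naive cells in both primed groups under all scalings tried.

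Among 8 genes of the eIF2 kinases, the eIF2 phosphatase and their partners, 2 rose and 0 fell in MLN-primed against spleen-primed cells: Eif2ak4, the kinase GCN2 that senses uncharged tRNA, by 0.56 ± 0.13 (adjusted p = 0.0089), and its partner Gcn1l1 by 0.47 ± 0.14 (adjusted p = 0.031). That is 25% of the list, against 17.3% of all genes, and is not a result about the list. In MLN-primed against naive cells 2 rose (Eif2ak3 and Eif2ak4) and 1 fell, or 25% and 12.5%, against 45.5% and 33.2% of all genes. In spleen-primed against naive cells 2 rose (Eif2ak3 and Ppp1r15b) and 2 fell, Gcn1l1 among them. There 43.1% of all genes rose and 32.7% fell. Under median-of-ratios scaling 0 were higher and 3 lower in spleen-primed than in naive cells. The gene that fell against naive cells in both primed groups was Ppp1r15a, the inducible phosphatase subunit GADD34. It averaged 3.80 ± 1.41 FPKM in MLN-primed cells, 3.01 ± 0.569 FPKM in spleen-primed cells and 42.3 ± 40.1 FPKM in naive cells, so that its spread in naive cells was nearly as large as its mean.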
